A study of Mus musculus with 2 samples.

Results

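Histone-modifying enzymes add or remove methyl and acetyl groups on histone tails. The genes described here are the lysine demethylases (Kdm), lysine methyltransferases (Kmt2, Setd, Setdb, Ehmt, Suv39h, Suv420h, Dot1l), arginine methyltransferases (Prmt), lysine acetyltransferases (Kat) and deacetylases (Hdac and Sirt), taken by their symbols, with Kdm5c, Kdm5d and Kdm6a left out. The deposited table held 72 rows with such a symbol. Hdac4 had 2 of them, and the row with more reads was kept, so the set is 71 genes of 30724 in the table. Counted as measured were genes with 20 or more reads in the 2 libraries together, 70 of the 71 (Kdm4d had 4 and 3 reads) and 16316 of all genes. Prmt8 passed that filter through the tumour library alone (0 reads in normal kidney and 117 in tumour). It therefore had to come out higher, and it is kept in the counts below.

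The series holds 1 RNA-seq library from a normal kidney and 1 from a kidney tumour. The normal kidney carries the genotype label WT and had no doxycycline. The tumour carries the genotype label Tet-OSKM/mPer2-luc and its animal received doxycycline, which acts through the M2rtTA transactivator at Rosa26 to switch on the reprogramming factors Oct4, Sox2, Klf4 and c-Myc. The mPer2-luc allele reports the clock gene Per2 by luciferase light. Both libraries are labelled with a C57BL/6 x DBA/2 F1 background, and the protocol text given with both describes chimeric animals made by injecting the transgenic embryonic stem cells into blastocysts, so host cells can be part of the tissue. The sources used here do not say whether the normal kidney came from such a chimera, nor the age and sex of the animals or the dose and length of doxycycline. Per the labels' protocols, total RNA was depleted of ribosomal RNA before strand-keeping libraries were made. With 1 library per group no difference has a replicate check: every value compares these 2 libraries, and every interval is a 95% interval for counting error only.

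Acetylation of histone lysines loosens chromatin and marks active genes, and it is removed by HDACs, which use zinc, and by sirtuins, which use NAD. Methylation can mark active promoters (H3K4), transcribed gene bodies (H3K36, H3K79) or silent chromatin (H3K9, H4K20), and demethylases of the KDM1 group use a flavin while the others use iron and 2-oxoglutarate. In pluripotent cells several of these enzymes hold developmental genes and retroviral repeats in check, and in the kidney, a tissue rich in mitochondria, the mitochondrial sirtuins remove acyl groups from metabolic enzymes.

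Transcripts of most of these enzymes were higher in the tumour, and those of the sirtuins were the main group on the lower side. Levels are given as the deposited RPKM, the count divided by exon length and by the library's read total. Differences are the ratio of read counts, tumour over normal, after library sizes were scaled with TMM, a method that centres the bulk of genes. A gene was called higher or lower if it differed by 2-fold or more and the interval, given in parentheses after each fold, left out equality. Of the 70 measured enzymes, 37 were called higher (52.9%, against 31.2% of all measured genes), 10 lower (14.3% against 28.0%) and 23 neither. In either direction 59.2% of all genes were called, so a call by itself sets no gene apart. The median log2 ratio was 1.07 for the enzymes and 0.085 for all measured genes. At 4-fold, 12 were higher (17.1% against 18.5%) and 4 lower (5.71% against 15.8%), or 22.9% against 34.3% in either direction. Differences of at least 8-fold were fewer, 8.57% against 21.3% in either direction, with 5 higher (7.14% against 12.2%) and 1 lower (1.43% against 9.15%). The scaling bears on the split: with plain counts scaled to the exon reads (CPM) the median of all genes moved up by 0.56 on the log2 scale, and 47 enzymes were higher and 5 lower, so that the share of calls on the higher side went from 78.7% to 90.4% (all genes 52.8% to 67.6%). Setd2, Prmt2, Kdm4b, Kdm8 and Kat6a, not called here, were called higher when scaled by plain CPM, by the read totals in the table headers (header totals) or by RPKM, and Ehmt2, Suv420h2, Kdm2a, Kat5 and Hdac3 with plain CPM.

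The libraries held 29258428 and 20836819 reads over exons, of which the enzymes took 76585 (0.262%) in normal kidney and 151712 (0.728%) in the tumour, with a median of 815 and 1622 reads per gene. The 2 libraries also differed widely in markers of cell types. All 16 markers of proximal tubule, loop of Henle, distal tubule and collecting duct were called lower in the tumour, with summed levels of 22768 against 828 CPM for the proximal tubule, 7271 against 47.5 for the loop and distal tubule and 303 against 6.65 for the collecting duct. All 6 markers of pluripotent cells were higher (summed 0.0829 against 1366 CPM, with Dppa4, Pou5f1, Sox2 and Zfp42 at 0 in the normal library), as were all 5 of dividing cells (24.8 against 2519 CPM). The 6 pluripotency markers passed the filter through the tumour alone (under 10 reads in normal kidney) and so had to be higher. Among them, Pou5f1 (Oct4) and Sox2 are also factors that doxycycline switches on, and reads of the transgene were not told apart. Of the markers of other cells, 1 of 3 podocyte and 2 of 4 endothelial genes were lower, and 2 of 3 measured leukocyte and 2 of 3 fibroblast genes were higher. Summed levels were 301 against 199.6 CPM for podocytes, 323 against 99.9 for endothelium, 27.1 against 63.3 for leukocytes and 141 against 695 for fibroblasts. In bulk tissue, fewer cells of a type and less RNA per cell cannot be told apart, and the part of these cell types in the results on the enzymes was not tested. Where exons of an enzyme overlap a gene on the opposite strand (24 of the 71), reads of the pair can be mixed, since the strand setting behind the counts (not given in the sources used here) is unknown.

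By length-scaled level, the leading enzymes of the 2 libraries were different genes with the exception of Hdac2. In the normal kidney the 5 with the highest RPKM were Sirt3 (40.6), Setd3 (38.4), Hdac2 (18.7), Sirt7 (16.9) and Hdac6 (16.4). In the tumour they were Prmt1 (96.6), Kdm5b (62.8), Kdm1a (59.5), Hdac2 (59.2) and Hdac1 (45.4). Sirtuins made up 18.9% of the summed RPKM of the 71 enzymes in normal kidney and 3.88% in the tumour. Demethylases took 15.3% and 25.6%, methyltransferases of lysine and arginine 38.01% and 44.9%, HDACs 18.02% and 16.4%, and acetyltransferases 9.82% and 9.23%. These shares are taken within a library and do not depend on the scaling between libraries.

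**Figure D1:**
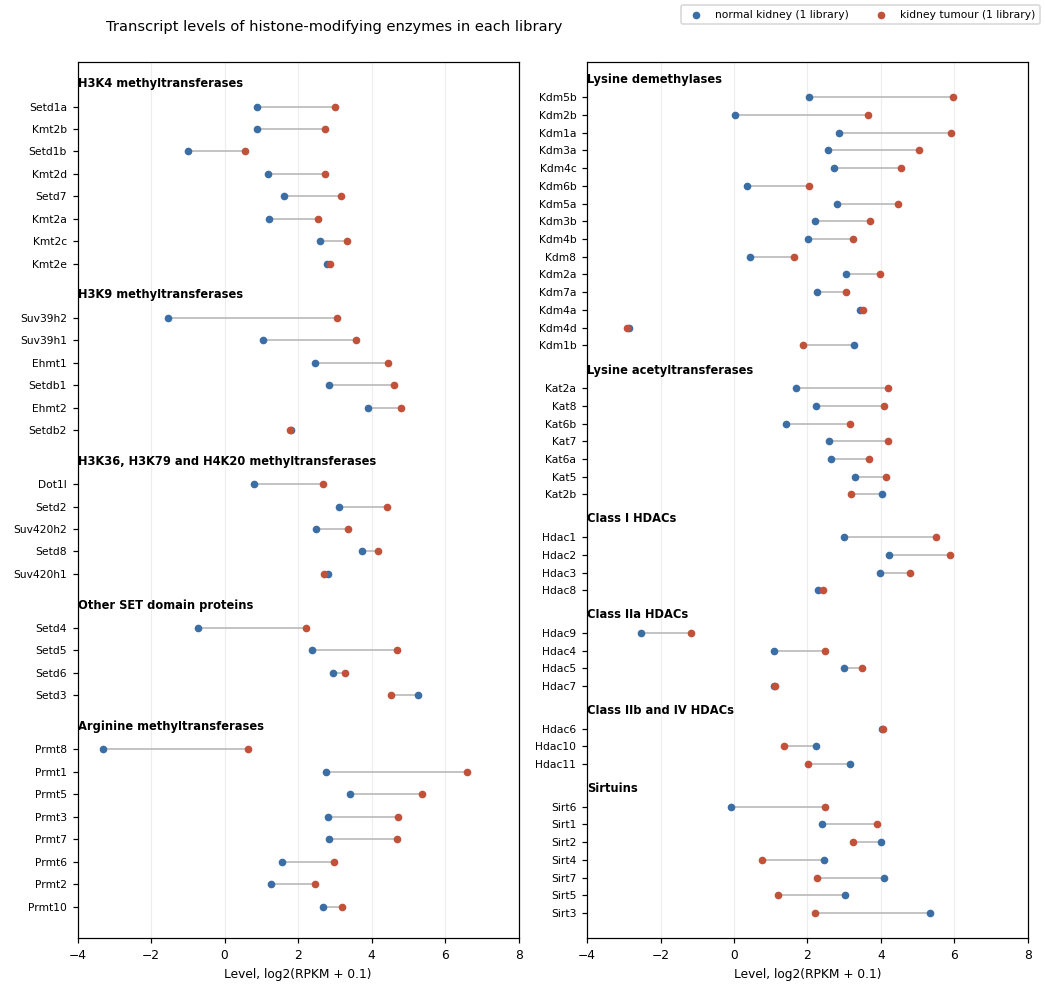
Level of each enzyme in the normal kidney (blue) and the tumour (red), 1 library each, as log2 of the deposited RPKM plus 0.1, grouped by family and ordered by ratio within a family. Sirt3 leads in the normal kidney at 40.6 RPKM and Prmt1 in the tumour at 96.6 RPKM, while Kdm4d is near 0 in both.

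The methyltransferases of H3K4, which mark promoters and enhancers, were higher for 6 of 8 members with none lower (median log2 ratio 1.23). All measured genes had 31.2% higher and 28.0% lower, and no family was tested against these shares. Setd1a, a catalytic subunit of the complex that places most H3K4 trimethylation, had 416 reads in normal kidney and 1544 in tumour and was 3.54-fold higher (3.18 to 3.96). Of its annotated exon bases 53.3% are shared with another gene model, Gm49388, on the same strand. Its paralog Setd1b, at 0.397 RPKM in normal kidney and 1.37 RPKM in tumour, was 2.71-fold higher (2.23 to 3.30). Kmt2b, a promoter enzyme needed in early development, was 2.93-fold higher (2.67 to 3.22), and its paralog Kmt2a, the MLL gene of leukaemia translocations, had 1469 reads in normal kidney and 3134 in tumour and was 2.04-fold higher (1.91 to 2.17), close to the threshold. Of the enhancer enzymes, Kmt2d was 2.36-fold higher (2.23 to 2.499) and Kmt2c, the most read of the family with 4028 reads in normal kidney and 5590 in tumour, was 1.32-fold higher (1.27 to 1.38) and not called. Setd7, which also methylates many non-histone proteins, was 2.34-fold higher (2.16 to 2.53). Kmt2e, a SET domain protein with no established methyltransferase activity, had a log2 ratio of -0.25.

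Enzymes of H3K9 methylation, the mark of silent chromatin, were higher for 4 of 6 (all genes 31.2%) and lower for none (28.0%), with a median of 1.55. Suv39h2 (chromosome 2, 3455815 to 3474986), which trimethylates H3K9 at pericentromeric repeats, had 42 reads in normal kidney and 1167 in tumour, or 0.243 and 8.23 RPKM. It was 26.5-fold higher (19.5 to 37.0), the largest ratio among the enzymes with reads in both libraries, and its ratio lay above that of 94.5% of all measured genes. Of its exon bases 8.25% lie opposite Dclre1c, which had 230 and 319 reads. Its X-linked paralog Suv39h1 had 246 reads in normal kidney and 1211 in tumour and was 4.70-fold higher (4.09 to 5.41), with 11.1% of its exon bases opposite Gm14820. Setdb1, which places H3K9 trimethylation on endogenous retroviruses in embryonic stem cells, was 2.70-fold higher (2.54 to 2.88), at 7.11 RPKM in normal kidney and 24.5 RPKM in tumour. Ehmt1 and Ehmt2 (GLP and G9a), which form a heterodimer for H3K9 dimethylation, were unequal: Ehmt1 was 3.18-fold higher (2.98 to 3.41), whereas Ehmt2 was 1.47-fold higher (1.40 to 1.55) and not called. Setdb2 had a log2 ratio of -0.37.

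The upstream sequences of Suv39h2 and Sirt3, the extremes among enzymes read in both libraries, are shown with those of Kdm1a and Kdm1b. Among the 15 paralog pairs described below, the ratios of Kdm1a and Kdm1b differed most. Each run holds the 250 bases before the start of the RefSeq gene on build GRCm38.p6, 5′ to 3′ on the strand of the gene, and that start coincides with the start of the deposited gene model for all 4. Capitals mark matches, on either strand, to 7 short motifs, the E-box CACGTG, the E2F motif TTCCCGC, the GC box GGGCGG, the CCAAT box, the octamer ATGCAAA, the NRF1 motif GCATGCG and the ETS motif CCGGAAG.

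Suv39h2 (chr2:3474987-3475236, minus strand): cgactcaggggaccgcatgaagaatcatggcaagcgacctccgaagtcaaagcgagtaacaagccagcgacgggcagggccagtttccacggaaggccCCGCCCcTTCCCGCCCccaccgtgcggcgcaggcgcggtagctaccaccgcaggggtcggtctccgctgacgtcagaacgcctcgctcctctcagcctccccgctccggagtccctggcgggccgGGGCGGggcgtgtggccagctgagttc

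Sirt3 (chr7:140881870-140882119, minus strand): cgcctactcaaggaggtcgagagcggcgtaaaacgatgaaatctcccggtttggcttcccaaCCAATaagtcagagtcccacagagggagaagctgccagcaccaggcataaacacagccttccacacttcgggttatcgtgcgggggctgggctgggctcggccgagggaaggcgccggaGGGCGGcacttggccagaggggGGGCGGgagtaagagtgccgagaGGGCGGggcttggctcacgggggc

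Kdm1a (chr4:136602724-136602973, minus strand): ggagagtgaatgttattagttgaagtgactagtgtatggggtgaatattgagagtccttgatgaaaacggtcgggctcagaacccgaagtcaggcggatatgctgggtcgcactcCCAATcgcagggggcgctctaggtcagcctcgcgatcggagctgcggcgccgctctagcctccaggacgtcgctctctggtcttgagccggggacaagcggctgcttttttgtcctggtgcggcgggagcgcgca

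Kdm1b (chr13:47043249-47043498, plus strand): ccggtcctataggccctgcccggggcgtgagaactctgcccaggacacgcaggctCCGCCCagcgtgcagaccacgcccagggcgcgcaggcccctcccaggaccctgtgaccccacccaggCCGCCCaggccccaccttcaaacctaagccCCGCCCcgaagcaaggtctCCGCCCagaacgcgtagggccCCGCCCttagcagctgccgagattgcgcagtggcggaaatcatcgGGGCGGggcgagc

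Suv39h2 held 4 matches, with an E2F motif overlapping a GC box, Sirt3 4 (3 GC boxes and a CCAAT box), Kdm1a a lone CCAAT box and Kdm1b 6 GC boxes. Promoter windows were found for 58 measured enzymes. In 54 of them the RefSeq start lay within 1000 bases of the deposited start, and for Setdb2, Sirt5, Setd5 and Hdac4 it lay 3115, 5184, 27296 and 31847 bases away. A GC box lay in 19 of the 31 windows of enzymes called higher and in 7 of the 9 of those called lower, against 57.7% of all 12236 measured genes with a window. A CCAAT box lay in 9 and 6 of them and in 10 of the 18 windows of enzymes not called, against 36.1%. Of all genes called higher and lower, 37.7% and 35.5% held one. The E2F motif was in 4 and the E-box in 6 of the 58 windows (all genes 6.89% and 8.38%), the ETS motif in 9 (12.7%), the NRF1 motif in 2 (5.21%) and the octamer in 0 (3.44%). Median GC content was 61.0% for the enzymes and 59.6% for all genes. These are matches of letters in a window and not sites of binding.

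For H3K36, H3K79 and H4K20 enzymes, 1 of 5 was higher, under the 31.2% of all genes, and none lower, against 28.0% (median 0.55). It was Dot1l, the H3K79 methyltransferase, at 1.64 RPKM in normal kidney and 6.28 RPKM in tumour and 2.996-fold higher (2.66 to 3.38). Setd2, which trimethylates H3K36 in transcribed genes, had 2877 reads in normal kidney and 5874 in tumour and stood just short of the threshold, 1.95-fold higher (1.86 to 2.04). Setd8 (now Kmt5a), which places the first methyl group on H4K20, was nearly level between the libraries at 1.05-fold higher (0.979 to 1.13). Of the pair that adds further methyl groups there, Suv420h1 (now Kmt5b) had a log2 ratio of -0.45 and Suv420h2 (now Kmt5c) of 0.55.

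Other SET domain proteins were divided, with 2 of 4 higher (all genes 31.2%) and 1 lower (28.0%), at a median of 0.99. Setd5, a chromatin protein mutated in intellectual disability in humans, had 1337 reads in normal kidney and 5556 in tumour and was 3.96-fold higher (3.73 to 4.21). Setd4 rested on few reads in the normal kidney (37 against 275) and was 7.09-fold higher (5.02 to 10.3). Setd3, a histidine methyltransferase of actin, was 2.13-fold lower (2.02 to 2.24), at 38.4 RPKM in normal kidney and 23.0 RPKM in tumour. It was not called with plain CPM, header totals or RPKM, and 64.8% of its transcript has a copy of at least 95% identity in Gm14026. Setd6, which methylates the NF-kappa-B subunit RelA, had 508 and 528 reads and a log2 ratio of -0.012.

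Arginine methyltransferases were higher for 6 of 8 members (all genes 31.2%) and lower for none (28.0%), with a median of 1.54. The 6 include Prmt8, which had to be higher because it passed the filter through the tumour alone. Prmt1 (chromosome 7, 44976755 to 44986420), which makes most asymmetric dimethylarginine, had 362 reads in normal kidney and 4333 in tumour, or 6.63 and 96.6 RPKM, and was 11.4-fold higher (10.3 to 12.7). It took 15.5% of the summed RPKM of the family in normal kidney and 45.2% in the tumour. Prmt8 (chromosome 6, 127689009 to 127769159), a membrane-bound relative of Prmt1 known from brain, had 0 reads in normal kidney and 117 in the tumour. The exact interval of these counts began at 29.8-fold, and against a floor of 3 reads in normal kidney the ratio was 37.2, at a low level of 1.47 RPKM in the tumour. Prmt5, the main enzyme of symmetric dimethylarginine, was 3.07-fold higher (2.87 to 3.29), at 10.5 RPKM in normal kidney and 41.2 RPKM in tumour. Prmt3, which methylates a small-subunit ribosomal protein, was 2.96-fold higher (2.71 to 3.22), Prmt7, which adds a lone methyl group, 2.87-fold higher (2.62 to 3.14), and Prmt6, a writer of H3R2 dimethylation, 2.11-fold higher (1.83 to 2.43). For Prmt6, 23.5% of the exon bases lie opposite the noncoding C130013H08Rik. The match of 40.2% of its transcript to that gene reflects this overlap and not a separate copy. Prmt2 and Prmt10 (now Prmt9), a methyltransferase of a splicing factor, were not called, with log2 ratios of 0.87 and 0.18.

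Lysine demethylases included the gene with the most reads in the tumour among the 71 enzymes. Of 14 measured members 8 were higher (all genes 31.2%) and 1 lower (28.0%), with a median of 1.24. Kdm5b (chromosome 1, 134560178 to 134632878), which removes H3K4 trimethylation, had 1010 reads in normal kidney and 13061 in tumour. The latter count was the highest in either library among the 71 enzymes. Kdm5b was 12.3-fold higher (11.6 to 13.2). Its level was 3.98 RPKM in normal kidney and 62.8 RPKM in the tumour. Its paralog Kdm5a was 2.49-fold higher (2.38 to 2.59), at 6.87 RPKM in normal kidney and 21.8 RPKM in tumour. Kdm2b (chromosome 5, 122870675 to 122989099), an H3K36 demethylase that brings a variant Polycomb complex to CpG islands, had 192 reads in normal kidney and 2137 in tumour and was 10.6-fold higher (9.16 to 12.4). Of its exon bases 14.1% lie opposite other genes, mainly Rnf34. Its paralog Kdm2a was 1.49-fold higher (1.41 to 1.57) and not called.

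Kdm1a (chromosome 4, 136550533 to 136602723), or LSD1, which removes mono- and dimethylation from H3K4 within corepressor complexes, had 861 reads in normal kidney and 5911 in tumour and was 6.55-fold higher (6.10 to 7.04). Kdm1b (chromosome 13, 47043499 to 47085279), or LSD2, which acts on the same mark and is known from growing oocytes, went the other way. It had 1896 reads in normal kidney and 590 in tumour and was 3.37-fold lower (3.07 to 3.70), at 9.45 RPKM in normal kidney and 3.58 RPKM in tumour. Of its exon bases 9.99% lie opposite Dek, which itself had 1534 and 6779 reads and so was on the higher side in the tumour. Kdm3a, an H3K9 demethylase, was 4.38-fold higher (4.11 to 4.68), at 5.81 RPKM in normal kidney and 32.5 RPKM in tumour, and Kdm3b 2.23-fold higher (2.09 to 2.38). Of the KDM4 group, which acts on trimethylated H3K9 and H3K36, Kdm4c was 2.79-fold higher (2.61 to 2.99), while Kdm4b and Kdm4a had log2 ratios of 0.91 and -0.27 and Kdm4d was not measured. Kdm6b, which removes H3K27 trimethylation, was 2.67-fold higher (2.35 to 3.05) from a low level of 1.18 RPKM. Kdm8 and Kdm7a were not called, with log2 ratios of 0.90 and 0.44.

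**Figure D2:**
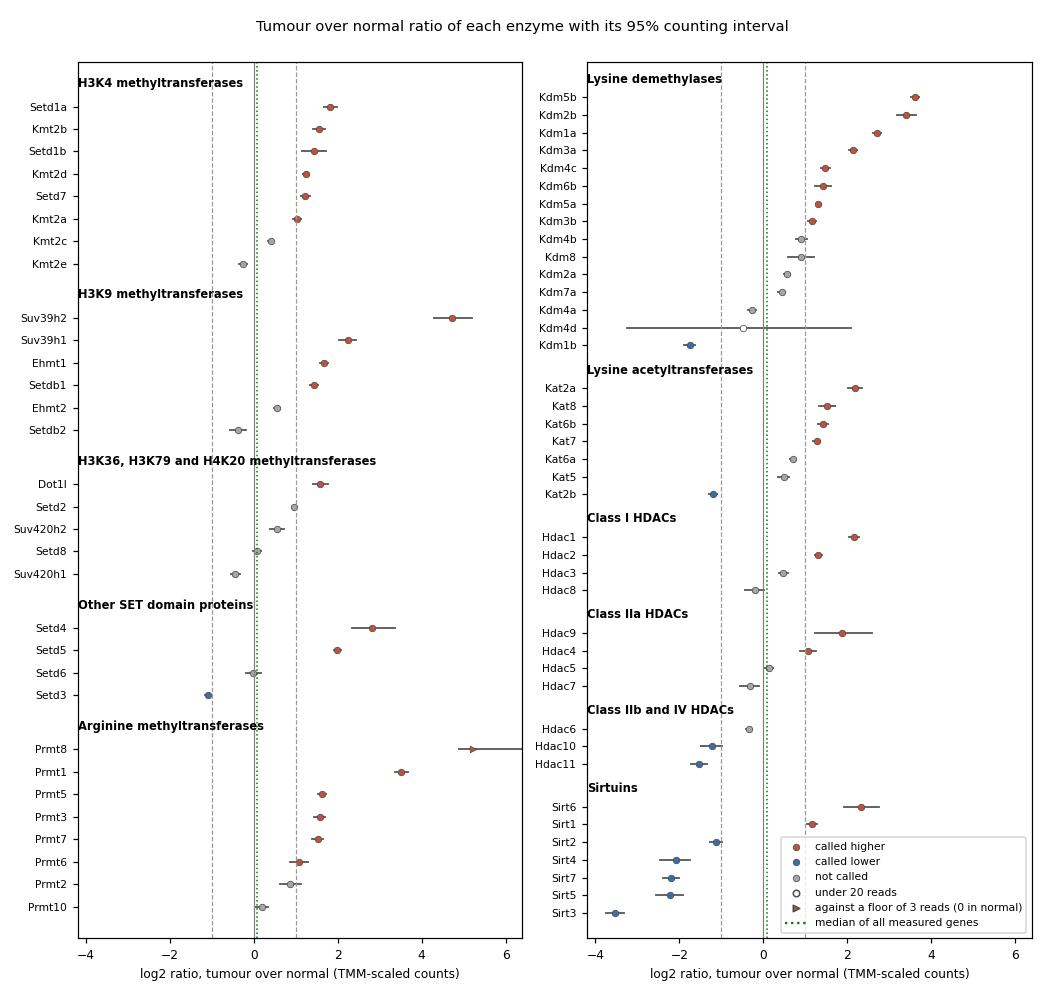
Log2 ratio, tumour over normal, of TMM-scaled counts for each enzyme, with bars for the 95% counting interval, dashed lines at 2-fold and a dotted line at the median of all measured genes (0.085). Red points were called higher and blue points lower, the white point (Kdm4d) had under 20 reads and the arrowhead (Prmt8, 0 reads in normal kidney) is the ratio to a floor of 3 reads. The sirtuins spread from -3.53 to 2.33, while no arginine methyltransferase lies below 0.

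Acetyltransferases were higher for 4 of 7 members (all genes 31.2%) and lower for 1 (28.0%), with a median of 1.27. Kat2a, or GCN5, the acetyltransferase of the SAGA and ATAC coactivators, had 381 reads in normal kidney and 1818 in tumour and was 4.55-fold higher (4.07 to 5.10). Its paralog Kat2b, or PCAF, had 3054 reads in normal kidney and 1389 in tumour and was 2.30-fold lower (2.16 to 2.46). Kat2b was not called with plain CPM, header totals or RPKM, and 53.3% of its transcript has a near-identical copy in the pseudogene Kat2b-ps. In the MYST family, Kat8, which acetylates H4K16, was 2.86-fold higher (2.49 to 3.29). Of its exon bases 7.73% lie opposite Prss8, which had 9033 reads in normal kidney and 679 in tumour. Kat6b was 2.68-fold higher (2.47 to 2.92) and Kat7, the HBO1 enzyme of replication origins and H3K14, 2.41-fold higher (2.27 to 2.57). Kat6a, at 6.08 RPKM in normal kidney and 12.7 RPKM in tumour, and Kat5, the TIP60 acetyltransferase, with 18.9% of its exon bases opposite Rnaseh2c, had log2 ratios of 0.70 and 0.49 and were not called.

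Of the HDACs, class I had 2 of 4 higher and none lower (median 0.89). Among all measured genes 31.2% were higher and 28.0% lower, and each HDAC group here rests on 3 or 4 genes. Hdac1 and Hdac2 are the catalytic pair of the SIN3, NuRD and CoREST complexes. Hdac1 had 626 reads in normal kidney and 2944 in tumour and was 4.49-fold higher (4.11 to 4.90), and 71.1% of its transcript has a copy of at least 95% identity in the model AC125456.1. Hdac2 had 1500 reads in normal kidney and 3910 in tumour and was 2.49-fold higher (2.34 to 2.64), at 18.7 RPKM in normal kidney and 59.2 RPKM in tumour. Hdac3, the deacetylase of the NCoR complexes, had a log2 ratio of 0.47 and Hdac8 of -0.21. Class IIa had the same split. Of this class, whose members shuttle between nucleus and cytoplasm and repress MEF2 targets, Hdac4 was 2.09-fold higher (1.83 to 2.39) and Hdac9 3.70-fold higher (2.34 to 6.06), the latter from 24 and 93 reads and under 1 RPKM in both libraries. Hdac5, the most abundant of class IIa, and Hdac7 were not called (log2 ratios 0.13 and -0.32). In classes IIb and IV, 2 of 3 were lower and none higher, and no difference between classes was tested. Hdac11, which removes fatty acyl groups, had 885 reads in normal kidney and 323 in tumour and was 2.87-fold lower (2.53 to 3.27), and Hdac10, a polyamine deacetylase, had 442 and 198 and was 2.34-fold lower (1.97 to 2.78). Hdac10 lost its call with plain CPM, header totals and RPKM, Hdac11 only with plain CPM among the scalings tried. For Hdac11, 26.0% of the exon bases lie opposite other gene models. Hdac6, the tubulin deacetylase of the cytoplasm, had a log2 ratio of -0.34 at 16.4 RPKM in normal kidney and 16.5 RPKM in tumour.

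All 7 sirtuins were called, 5 lower (all genes 28.0%) and 2 higher (31.2%) in the tumour, with a median log2 ratio of -2.09. The mitochondrial members were lower for 3 of 3. Sirt3 (chromosome 7, 140863663 to 140881869), the main mitochondrial deacetylase, had 2309 reads in normal kidney and 209 in tumour, or 40.6 and 4.48 RPKM, and was 11.6-fold lower (10.05 to 13.4). That was the largest difference on the lower side among the enzymes, and 6.75% of all measured genes had a smaller ratio. Annotated transcripts of the neighbour Ric8a match 29.4% of the Sirt3 transcript at 95% identity or more. Whether these are bases shared at the locus was not examined. Sirt5 (chromosome 13, 43370719 to 43395203), which removes succinyl and malonyl groups, had 440 reads in normal kidney and 99 in tumour and was 4.66-fold lower (3.74 to 5.85). Sirt4, a mitochondrial lipoamidase, had 333 and 82 reads and was 4.26-fold lower (3.33 to 5.49). These 3 genes summed to 54.0 RPKM in normal kidney and 8.28 RPKM in the tumour.

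Sirtuins outside mitochondria did not share a direction. Sirt7 (chromosome 11, 120618372 to 120625002), a nucleolar deacetylase of H3K18, had 1165 reads in normal kidney and 266 in tumour and was 4.59-fold lower (4.02 to 5.26). Sirt2, the cytoplasmic tubulin deacetylase, had 1184 reads in normal kidney and 570 in tumour and was 2.18-fold lower (1.97 to 2.41), below the threshold when scaled by plain CPM, header totals or RPKM. Sirt6, which acts on H3K9 acetylation at telomeres and metabolic genes, was higher, with 58 reads in normal kidney and 305 in the tumour, 5.02-fold higher (3.78 to 6.76). Sirt1, the nuclear deacetylase of p53 and histone H4, had 815 reads in normal kidney and 1906 in tumour and was 2.23-fold higher (2.05 to 2.42). Within the family, Sirt3 took 43.8% of the summed RPKM in normal kidney and 10.5% in the tumour, and Sirt1 5.57% and 34.7%. The lower calls of Sirt3, Sirt4, Sirt5 and Sirt7 were kept under the other 4 scalings tried.

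Paralogs can be set against each other within a library, which removes the scaling between libraries. Among 15 pairs, the member with the higher level per length switched in 5. Of these, 2, Kdm1a with Kdm1b and Kat2a with Kat2b, were called in opposite directions. The calls, unlike the shares, depend on the scaling, and Kat2b lost its lower call with plain CPM, header totals and RPKM. Its near-identical copy in Kat2b-ps (53.3% of the transcript) also bears on the share of that pair. Kdm1a made up 42.9% of the summed RPKM of the KDM1 pair in normal kidney and 94.3% in the tumour, a change in the ratio of their reads of 22.1-fold (95% interval 19.6 to 24.8). Kat2a went from 16.03% to 66.7% of its pair, a change of 10.5-fold (95% interval 9.22 to 11.9). Kdm5b went from 36.7% to 74.2% against Kdm5a, a change of 4.96-fold (95% interval 4.59 to 5.36), although both were higher in the tumour. The other switches were Suv420h2 against Suv420h1, from 44.1% to 61.2%, and Kmt2b against Kmt2a, from 43.9% to 53.0%.

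Some minor paralogs gained share without becoming the larger one. Kdm2b went from 10.1% to 44.4% of the KDM2 pair, a change of 7.14-fold (95% interval 6.10 to 8.39), and Suv39h2 from 11.0% to 41.1% of the SUV39H pair, a change of 5.64-fold (95% interval 4.01 to 8.10). Ehmt1, Hdac1, Kmt2d and Kat6b stood at 26.6%, 29.8%, 26.7% and 29.7% of their pairs in normal kidney and at 43.9%, 43.4%, 39.3% and 41.0% in the tumour. Setdb1, Kdm3a, Hdac6 and Setd1a were the larger members in both libraries, with shares of 67.8%, 56.4%, 78.2% and 81.4% in normal kidney and 88.1%, 71.7%, 86.9% and 85.1% in the tumour. The counting interval of the change excluded no change for all 15 pairs, the smallest being 1.31-fold (95% interval 1.04 to 1.64) for Setd1a against Setd1b. In the KDM4 group Kdm4c took 30.6% and 52.7% and Kdm4a 50.7% and 25.9%.

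**Figure D3:**
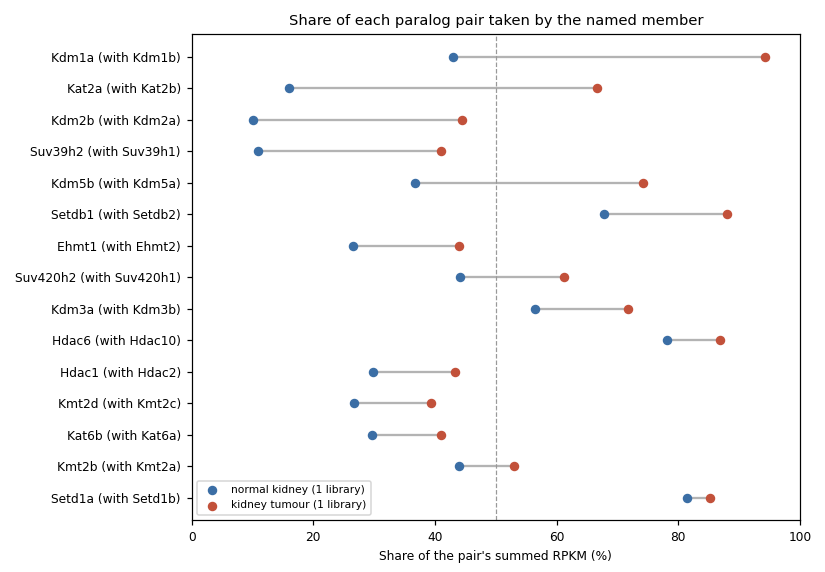
Share of the summed RPKM of each of 15 paralog pairs taken by the named member, in the normal kidney (blue) and the tumour (red), 1 library each, ordered by the size of the change. Kdm1a, Kat2a, Kdm5b, Suv420h2 and Kmt2b cross the dashed line at equal shares, Kdm1a from 42.9% to 94.3%.

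Genes that work with these enzymes were described by list. Of 35 other histone-modifying enzymes 14 were higher (40.0%, against 31.2% of all measured genes) and 3 lower (8.57% against 28.0%, median 0.40). The 14 include Padi4 and Smyd1, which passed the filter through the tumour alone (under 10 reads in normal kidney) and so had to be higher. Padi4, which converts histone arginine to citrulline, had 0 and 62 reads. The H3K27 methyltransferase Ezh2 was 14.7-fold higher (12.7 to 17.1) and Hat1, which acetylates new histone H4, 7.26-fold higher (6.65 to 7.93). The meiotic H3K4 methyltransferase Prdm9 had 236 and 38 reads and was 6.51-fold lower (4.61 to 9.43). COMPASS subunits, which activate the KMT2 and SETD1 enzymes, were higher for 5 of 11 (45.5% against 31.2%) and lower for none (median 0.86). Psip1, a chromatin reader that binds KMT2A, was 11.9-fold higher (11.0 to 12.8), and the core subunits Ash2l and Wdr5 were 4.39-fold higher (4.10 to 4.70) and 3.31-fold higher (3.12 to 3.53).

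Of 29 genes of the corepressor complexes around HDAC1, HDAC2 and HDAC3, 11 were higher and 3 lower (median 0.57). These were 37.9% higher, against 31.2% of all measured genes, and 10.3% lower, against 28.0%. Rcor2, the CoREST protein of embryonic stem cells and a partner of Kdm1a, had 23 reads in normal kidney and 2463 in tumour and was 102-fold higher (67.9 to 161). Mta1 of NuRD was 4.97-fold higher (4.41 to 5.62) and the scaffold Sin3a 4.13-fold higher (3.87 to 4.41), whereas the NuRD helicase Chd3, with 15939 and 2765 reads, was 6.04-fold lower (5.80 to 6.29). Acetyltransferase complexes had 12 of 40 subunits higher and 1 lower (median 0.90). The higher share, 30.0%, was near the 31.2% of all genes, while the lower share was 2.5% against 28.0%. The count went to 28 higher with plain CPM, under which 42.1% of all genes were higher. Tada2a, an adaptor of GCN5, was 3.85-fold higher (3.35 to 4.43), Morf4l2 3.65-fold higher (3.45 to 3.86) and the SAGA subunit Taf5l 3.66-fold higher (3.28 to 4.09), and Msl3, a partner of Kat8, was 3.67-fold lower (3.30 to 4.09).

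Heterochromatin partners of the H3K9 enzymes were higher for 9 of 11 (81.8%, against 31.2% of all measured genes) and lower for none (median 1.62). Uhrf1, a reader of H3K9 methylation and hemimethylated DNA, had 62 and 7663 reads and was 118-fold higher (91.9 to 154). Trim28, the corepressor that recruits Setdb1, had 1565 and 20492 and was 12.5-fold higher (11.9 to 13.2), and the heterochromatin protein Cbx1 was 5.01-fold higher (4.64 to 5.41). Around PRMT5, 4 of 6 genes were higher (66.7% against 31.2%) and none lower (median 1.57). The obligate PRMT5 partner Wdr77 was 4.85-fold higher (4.49 to 5.24), the splicing assembly gene Smn1 3.79-fold higher (3.18 to 4.54) and the adaptor Clns1a 3.14-fold higher (2.91 to 3.38).

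Genes that supply or use the cofactors NAD, S-adenosylmethionine, acetyl-CoA and 2-oxoglutarate leaned to the other side (median -0.93). Of 17, 7 were lower (41.2%, against 28.0% of all measured genes) and 3 higher (17.6% against 31.2%). Of the 3, Mat1a (0 and 35 reads) and Nmnat2 passed the filter through the tumour alone and so had to be higher. The other was Parp1, which uses up NAD, with 1948 and 13728 reads and 6.72-fold higher (6.41 to 7.05). Acss2, which makes acetyl-CoA from acetate, had 9826 and 296 reads and was 34.8-fold lower (31.0 to 39.2). Of the NAD enzymes, Naprt, which starts synthesis from nicotinic acid, was 13.3-fold lower (10.6 to 16.9), and Nmnat3, ascribed to mitochondria, 10.4-fold lower (7.72 to 14.2), while the neuronal Nmnat2 had 4 and 418 reads and was 99.7-fold higher (38.6 to 368). The nephron markers were lower in the tumour, as were 7 of these 17 genes and 5 of 7 sirtuins. With 1 library per group a link among them cannot be examined, and the part of the nephron cells was not tested.

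**Figure D4:**
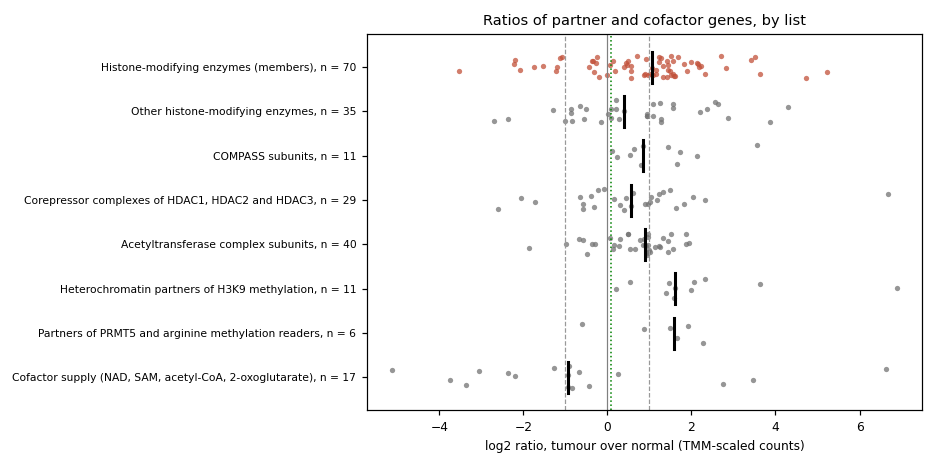
Log2 ratio, tumour over normal, of TMM-scaled counts for the measured enzymes (red) and for the measured genes of 7 partner lists (grey), with a black bar at each median, dashed lines at 2-fold and a dotted line at the median of all measured genes. The median is highest for the heterochromatin partners (1.62) and lowest for the list labelled cofactor supply (-0.93).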

How the data were processed

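Deposited were counts of reads (whole numbers, over exons) and RPKM values for 32958 models of the UCSC knownCanonical set, made by the authors. Per the submitters' processing notes, bcl2fastq, STAR 2.5.0c, HOMER and build mm10 were used. The handling of strand and of multi-mapped reads (not given in the sources used here) is unknown. The deposited RPKM equalled the count scaled by model length and header total (largest difference 1.80e-06).

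Spaces after symbols were removed, and the row with most reads stood for a symbol. TMM factors (0.824 normal, 1.21 tumour; edgeR 4.0.16, R 4.3.3) came from genes with at least 20 reads. Intervals are exact conditional (Clopper-Pearson) 95% intervals. PCR copies are not told apart from molecules. A count of 0 was set to 3 reads for a fold (0.124 CPM normal, 0.119 CPM tumour). Intervals for pairs are conditional odds ratio intervals. No p-value was computed.

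The members, families and lists were chosen with earlier results of these data known, and the pairs after the files were seen. Text names every enzyme and, per partner list, the 3 largest ratios toward the median and the largest called one against it, at a mean of at least 1 CPM. Smyd1, Mat1a and Parp1 were named besides. Of the partner entries 2 had no row. Exon overlap and copies used GENCODE M21 (same assembly) and blastn, and promoters came from RefSeq GRCm38.p6. The copy search took both strands and did not leave out genes that overlap at the same place. Other settings tried were DESeq2 1.42.0 size factors, plain CPM, header totals, RPKM plus 0.1, other filters and folds, and summed rows. Python 3.11.15, scipy 1.17.1 and matplotlib 3.10.9 did the rest.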

Additional observations from a re-analysis of the deposited data

How the results depend on the processing

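No paired analysis was possible because each group has 1 library. No called enzyme changed sign under DESeq2 size factors, plain CPM, header totals or RPKM plus 0.1. The 37 higher calls were kept, but these scalings moved all genes up or hardly at all, which leaves a higher call little room to be lost. The 10 lower calls were 10 with DESeq2 size factors, 5 with plain CPM and 6 each with header totals and RPKM plus 0.1. The last 3 of these scalings moved the median of all genes up by 0.56, 0.35 and 0.32 on the log2 scale. All measured genes called lower were 28.0% in the main scaling, 28.1% with DESeq2 size factors and 20.2%, 22.7% and 21.8% in those 3. Enzymes with a ratio below 1 numbered 18 in the main scaling, 10 with plain CPM and 12 with header totals and with RPKM. At 4-fold, 12 enzymes were higher and 4 lower, and 3022 and 2571 of all genes.

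In plain CPM, header totals and RPKM, the enzymes of H3K36, H3K79 and H4K20 had 3, 2 and 2 higher, classes IIb and IV of the HDACs 0, 1 and 1 lower, and the other SET proteins and the acetyltransferases 0 lower each. Acetyltransferase subunits had 28, 25 and 24 higher, and COMPASS 9 with plain CPM. Under the same 3 scalings 42.1%, 37.9% and 36.4% of all measured genes were higher. An alternative chosen after seeing the data left out 7 enzymes with at least 25% of exon bases or transcript found in other genes. These were Setd1a, Setd3, Prmt6, Kat2b, Hdac1, Hdac11 and Sirt3, and 34 higher and 6 lower of 63 remained. All measured genes, not filtered in this way, had 31.2% higher and 28.0% lower in the main scaling. Filters of 1 or 100 reads, 1.5-fold and summed rows kept the enzyme counts within 1.5 times. Depth limits Kdm4d, Prmt8, Hdac9, Setd4 and Suv39h2 most, with 0 to 42 reads in the normal library.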

Other observations

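Across the 70 measured enzymes (genes of the same libraries, not replicates) the Spearman correlation of the log2 ratio with the RPKM in the normal library was -0.54, a value that the ratio and the level share, and with exon length 0.16. The levels of the enzymes in the 2 libraries had a correlation of 0.46. At least 10 RPKM was reached by 12 of the 71 enzymes in the normal and by 34 in the tumour library, and at least 1 RPKM by 63 and 69.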
